A study of Drosophila melanogaster with 42 samples.

Results

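The cytoplasmic ribosomal protein genes of Drosophila melanogaster were followed through 12 lists of regions from chromatin immunoprecipitation and sequencing (ChIP-seq) of embryos. Members were the protein-coding genes of a RefSeq gene table whose symbol begins with RpL or RpS and goes on with a digit or a P, and 92 of 13922 protein-coding genes on the chromosome arms X, 2L, 2R, 3L, 3R and 4 met that rule. Of these, 54 are named for the large and 38 for the small ribosomal subunit. The X holds 14 members, 6 of the large and 8 of the small subunit, the arms 2L, 2R, 3L and 3R (called autosomes here) hold 77, and chromosome 4 holds 1, RpS3A. Whole embryos of 3-4 h and of 11-12 h were compared, in 42 samples of which 26 are ChIP and 16 are input, with no genotype, sex or treatment given in the labels. For MSL2, for MOF and for acetylated lysine 16 of histone H4 (H4K16ac), chromatin was cut by the enzyme micrococcal nuclease (MNase), with 3 samples per stage each. Sonicated chromatin was used for H4K16ac again and for trimethylated lysine 36 of histone H3 (H3K36me3), with 2 samples per stage each. MNase was used at 0.9 units per g of embryo at the younger and 2.9 units per g at the older stage, amounts set, per the labels, to reach a like degree of digestion, so stage and MNase amount changed together in every MNase comparison.

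Each ribosome contains nearly every one of these proteins in a single copy, so their genes are transcribed strongly and to matching levels, and flies with a single working copy of many of them develop slowly and have thin bristles, the Minute phenotype. In males the genes on the lone X are brought to the output of the paired autosomes by the MSL complex. MSL2 is its male-specific subunit, MOF is its acetyltransferase for H4K16, and H4K16ac and H3K36me3 are both found over the bodies of active X-linked genes. MOF also works in a second complex, the NSL complex, at active promoters on all chromosomes, and H3K36me3 is laid down behind elongating RNA polymerase II.

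The values are positions only. Each list gives the chromosome, start and end of regions for all replicates of a group together, with no score, read count or strand, so no value below has a replicate error, the depth is unknown, and no test was made over genes. A gene was counted as touched where at least 1 bp of it lay under a region, cover is the percentage of the gene body under the list, and each count is set beside the percentage of all protein-coding genes of the same chromosome class. A gene outside a list was not shown to lack the mark, since no level was given for it, and in whole embryos more cells with a mark and more mark per cell cannot be told apart. The members are short, with a median of 1.31 kb and a range of 0.304 to 4.68 kb, against medians of 2.52 kb for all genes of the X and 2.08 kb for those of the autosomes. The narrowest region is 1000 bp in the MOF, H4K16ac and H3K36me3 lists, 2000 bp in the MSL2 mononucleosomal lists and 200 bp in the MSL2 subnucleosomal lists, so a single region of the first 4 kinds can span a whole member. MSL2 has a pair of lists per stage, which the labels call only mono and sub; they are read here as regions from mononucleosomal and from shorter, subnucleosomal fragments, and the fragment sizes are not stated. The gene table has no strand, so gene ends are called the lower and the higher end by their coordinate. Positions are on dm6, counted from 1.

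H3K36me3 and the H4K16ac of sonicated chromatin lay over nearly all members on the X and over most on the autosomes. On MNase chromatin H4K16ac lay over few autosomal members at 3-4 h and over most at 11-12 h, whereas MOF was listed over X-linked members only and MSL2 over 1 X-linked and 1 autosomal member. H3K36me3 touched 14 of 14 X-linked members at both stages, where the share of all X genes was 53.8% at 3-4 h and 55.5% at 11-12 h. On the autosomes it touched 72 of 77 members (93.5%) and then 71 (92.2%), where all autosomal genes stood at 50.8% and 51.5%. H4K16ac on sonicated chromatin touched 13 X-linked members at 3-4 h, against 59.2% of X genes, and all 14 at 11-12 h, against 68.1%. Its autosomal count was 65 of 77 (84.4%) and then 61 (79.2%), beside 32.9% and 21.9% of all autosomal genes. On MNase chromatin H4K16ac touched 9 and then 14 X-linked members, beside 59.1% and 74.5% of X genes. Its autosomal count was 12 (15.6%) at 3-4 h and 48 (62.3%) at 11-12 h, beside 9.01% and 14.2% of autosomal genes.

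MOF touched 7 of 14 X-linked members (50.0%) at 3-4 h, close to the 48.5% of all X genes, and 10 (71.4%) at 11-12 h, beside 54.7%. No autosomal member was touched by MOF at either stage, where the share of all autosomal genes was 0.395% and 1.22%. MSL2 mononucleosomal regions touched 1 X-linked member, RpL22, at both stages (7.14%, beside 17.8% and 20.6% of X genes). With 1 kb added to each gene end they touched 5 and then 4 members. The share of all X genes was not computed with 1 kb added, so these counts cannot be set against it. Subnucleosomal MSL2 peaks touched no X-linked member, beside 5.05% and 6.78% of X genes. On the autosomes no member had a mononucleosomal MSL2 region, beside 0.0515% and 0.0687% of genes. The subnucleosomal lists touched none at 3-4 h, beside 0.0429% of genes, and 1 at 11-12 h, RpS26, beside 0.756%. Gene length bears on the MSL2 shares: among X genes of at most 3 kb, mononucleosomal MSL2 touched 9.86% and 11.6%, and the subnucleosomal peaks 1.47% and 1.71%. For the histone marks the short genes stood lower than all genes on the X, for example 48.7% for H3K36me3 at 3-4 h, so the members were farther from them than from all genes. For MNase H4K16ac on the autosomes the short genes stood higher than all genes, at 10.6% against 9.01% at 3-4 h and 16.8% against 14.2% at 11-12 h. There the members were nearer to the short genes.

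**Figure D1:**
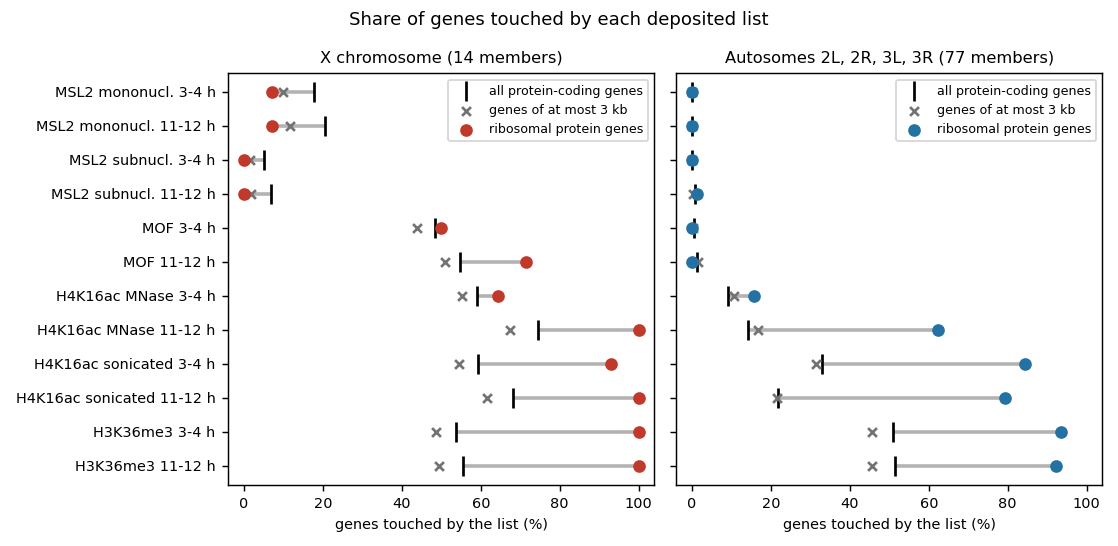
Share of genes touched by each of the 12 lists, in percent, for the ribosomal protein genes (dots), all protein-coding genes of the class (vertical bars) and those of at most 3 kb (crosses), on the X (left) and on the autosomes (right). The dots of H4K16ac at 11-12 h and of H3K36me3 stand at 100% on the X, and on the autosomes the MNase H4K16ac dot moves from 15.6% to 62.3% between the stages.

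RpL22, a large-subunit protein whose fly form carries a long amino-terminal extension, was the only member under an MSL2 mononucleosomal region (gene X 762560 to 765130). The MSL2 region ran from X 760522 to 764532 at 3-4 h and from X 760385 to 764898 at 11-12 h, over the lower end of the gene and 1 neighbouring gene, and stopped short of its higher end. Its cover was 76.7% and then 91.0%. MOF lay over the same end in regions of 5.32 and 5.51 kb, with 94.1% and 99.5% cover. H3K36me3 covered 99.5% at 3-4 h and 100% at 11-12 h, and H4K16ac 100% at both stages in both preparations. RpL22 thus carried each signal except the subnucleosomal MSL2 peaks. The nearest of these peaks lay 83 bp outside the gene at 3-4 h and 108 kb away at 11-12 h.

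The other 5 large-subunit members of the X had no MSL2 region over them. RpL7A had MOF cover of 75.9% at 3-4 h and 71.3% at 11-12 h, and the nearest MSL2 mononucleosomal region lay 0.814 and 0.792 kb away. Its H4K16ac cover on MNase chromatin was 24.6% and then 100%, while on sonicated chromatin it was 100% at both stages. RpL35, which lies at the exit of the nascent peptide tunnel, had 27.9% and 62.5% under MOF, with MSL2 0.835 and 0.819 kb away. Its MNase H4K16ac cover was 58.5% and then 100%. RpL36 had no MOF region at 3-4 h, with the nearest 0.167 kb away, and at 11-12 h a region of 8.81 kb covered 59.2% of it. These 3 genes thus all carried MOF at the later stage, with MSL2 listed near but not over RpL7A and RpL35, and 9.37 kb away from RpL36 at 11-12 h.

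RpL17 and RpL37-1 stood apart from that group. RpL17, another protein of the tunnel exit (X 6741537 to 6744238), was touched at 3-4 h by H3K36me3 alone, with 75.8% cover, and the nearest H4K16ac region was 1.13 kb away on MNase and 11.0 kb away on sonicated chromatin. At 11-12 h H4K16ac covered 100% of it in both preparations, in regions of 3.52 and 3.29 kb that touched no other gene, while MOF lay 15.3 kb and MSL2 16.3 kb away. RpL37-1 had MOF 47.5 and 48.0 kb away and MSL2 49.0 kb away at both stages. Its H4K16ac cover was 66.8% and 100% on MNase chromatin and 81.9% and 100% on sonicated chromatin. Both genes were therefore under H4K16ac at 11-12 h with no MOF or MSL2 region listed nearer than 15.3 kb.

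Among the small-subunit members of the X, MOF was listed at both stages over RpS6, RpS15Aa, RpS19a and RpS5a. RpS6, the phosphorylation target of S6 kinase, had MOF regions of 1.57 and 1.63 kb that touched no other gene, with cover of 87.3% and 91.0%. Its MNase H4K16ac region was almost the same at both stages, 2.00 and 2.02 kb with 100% cover. RpS15Aa had MOF cover of 78.6% and 61.7% and MSL2 0.567 and 0.618 kb away. RpS5a, the longest X-linked member, shared wide MOF regions of 14.3 and 21.7 kb with 3 other genes, with cover of 80.1% and 85.8%. Its H3K36me3 region was 13.4 kb at 3-4 h and 4.37 kb at 11-12 h, while its cover of RpS5a was 85.3% and 84.2%. RpS19a, whose human counterpart is mutated in Diamond-Blackfan anaemia, had MOF cover of 52.7% and 69.4%. No MNase H4K16ac region touched it at 3-4 h, the nearest being 0.115 kb away, and at 11-12 h a region of 41.9 kb over 8 genes covered it whole.

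RpS28b and RpS10b were listed under MOF at 11-12 h only, with cover of 58.2% and 41.6%. At 3-4 h MOF lay 0.750 kb beyond the lower end of RpS28b and 0.0480 kb beyond the higher end of RpS10b. The later region covered the higher end of both genes, so for RpS10b it lay on the side of the earlier neighbour and for RpS28b on the other side. For RpL36 the sides differed too, with MOF beyond the higher end at 3-4 h and over the lower end at 11-12 h. RpS14a and RpS14b, neighbouring copies that encode the same small-subunit protein, had no MOF region at either stage, at distances of 3.44 and 3.59 kb and then 0.942 and 2.10 kb. Each was under H4K16ac of sonicated chromatin at both stages with 100% cover, in a region of 8.28 kb and then of 21.1 kb that both copies shared. On MNase chromatin neither was touched at 3-4 h, and at 11-12 h a region of 36.9 kb over 10 genes covered both. H3K36me3 covered 100% of RpS14b at both stages, and 69.3% and then 93.1% of RpS14a. The near-identical copies share sequence, and how reads that match both were placed is not given in the sources used here.

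**Figure D2:**
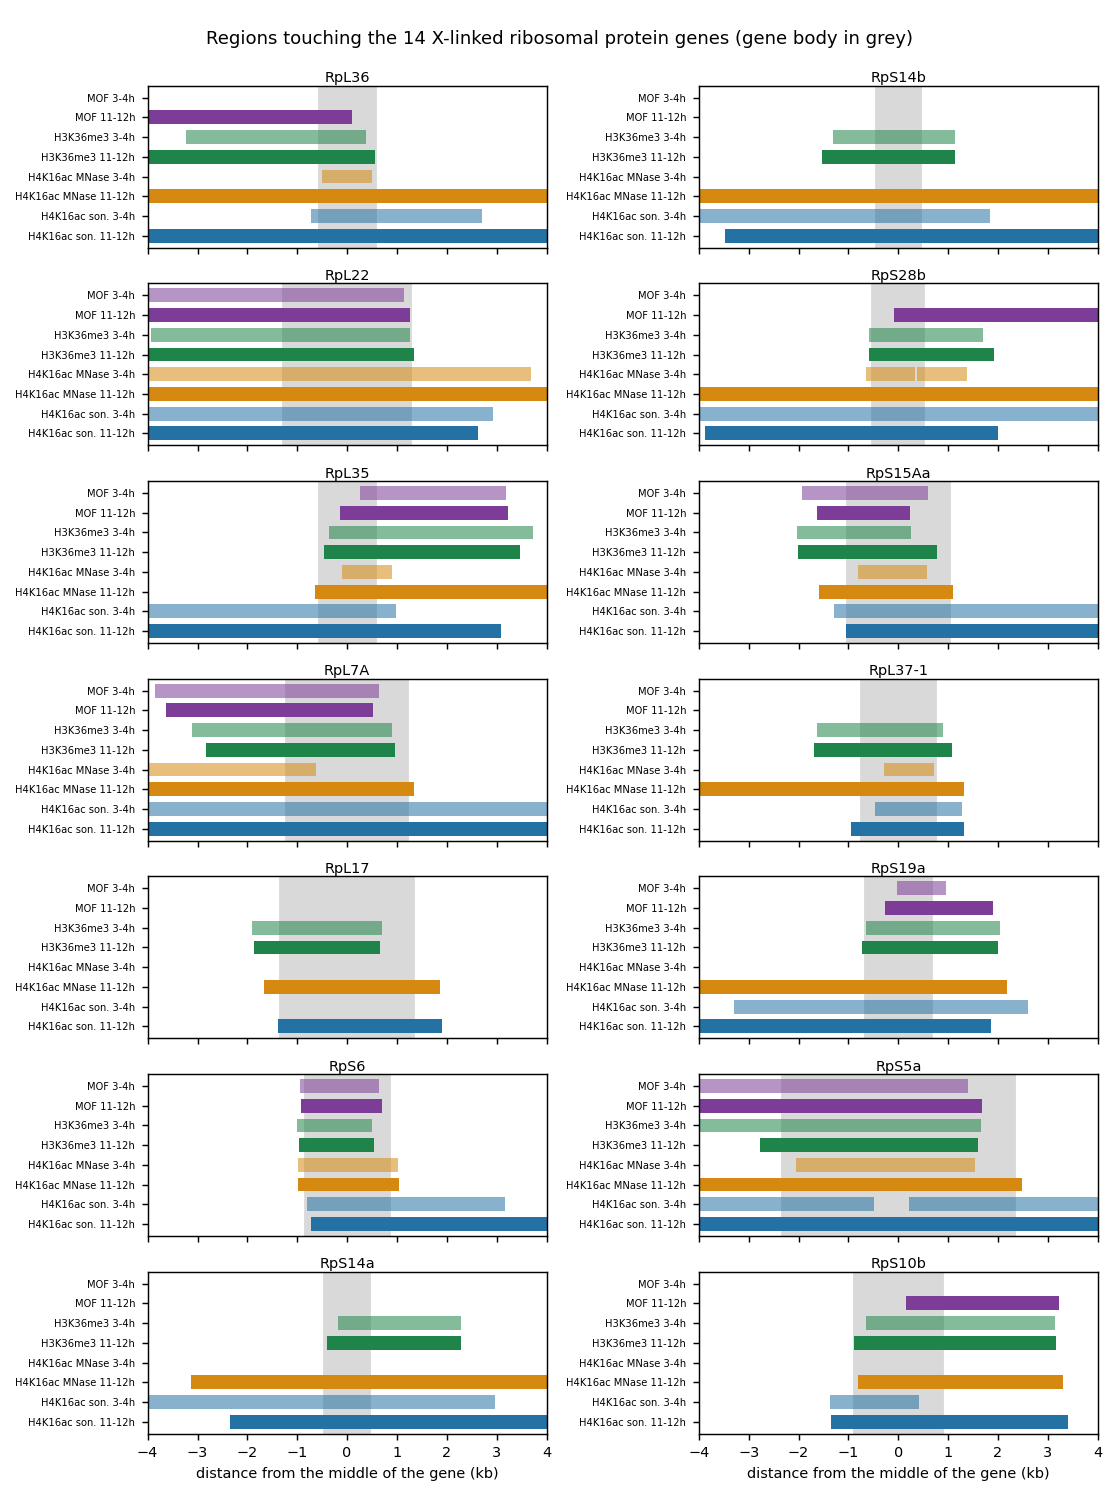
Regions of MOF, H3K36me3 and H4K16ac that touch the 14 X-linked ribosomal protein genes, by distance from the middle of the gene in kb (cut at 4 kb to each side), with 3-4 h in pale and 11-12 h in full colour and the gene body in grey. Where MOF and H3K36me3 each cover a single gene end it is the same end, 7 of 7 genes at 3-4 h, while the H4K16ac bars of 11-12 h span 13 of 14 genes whole in each preparation.

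Between the stages the X-linked members gained regions and lost none in the 6 pairs of lists. Of the 7 members without MOF at 3-4 h, 3 had it at 11-12 h, where the share of all such X genes was 13.5%. Of the 5 without MNase H4K16ac, RpL17, RpS14a, RpS14b, RpS19a and RpS10b, all had it at 11-12 h, beside 37.6% of such X genes. RpL17 was the 1 member without sonicated H4K16ac at 3-4 h and had it at 11-12 h, beside 23.1% of such X genes. With 1 kb added to each gene end, 1 member gained MOF and 3 gained MNase H4K16ac, and in the widest 50% of each list 10 gained MNase H4K16ac and 3 sonicated H4K16ac. Shares of all X genes were not computed under either setting. These groups of 1 to 7 genes are small, and 4 of the 5 for MNase were already under sonicated H4K16ac at 3-4 h. Among the 9 members with MNase H4K16ac at both stages, 7 had more cover later and 2 were within 0.5 points, with medians of 76.7% and 100%. For sonicated H4K16ac 9 of 13 were within 0.5 points, and both medians were 100%. Among the 7 members with MOF at both stages, 5 had more cover later and 2 had less, with medians of 78.6% and 71.3%. Followed gene by gene, the median change was a rise of 5.37 points, beside 0 points for all X genes with MOF at both stages. For H3K36me3 9 of 14 had more cover later, 2 had less and 3 were within 0.5 points, and the median went from 85.7% to 95.8%. The 13 MNase H4K16ac regions over X-linked members at 11-12 h had a median width of 9.45 kb, beside 4.85 kb for the X part of the list. At 3-4 h the 10 such regions had a median of 1.19 kb, beside 3.14 kb. For sonicated H4K16ac the medians over X-linked members were 7.64 kb at 3-4 h and 8.82 kb at 11-12 h, beside 2.96 and 3.77 kb. A wide region is more likely to touch a given gene than a narrow one, so the list medians are not a like comparison. Counted from the widest 50% of each list, H3K36me3 touched 4 and then 6 X-linked members, MOF 2 and then 4, and MNase H4K16ac 4 at 3-4 h.

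On the autosomes MNase H4K16ac appeared over a large group of members, most of which, like most members, were already under sonicated H4K16ac. Of 65 members untouched on MNase chromatin at 3-4 h, 38 were touched at 11-12 h, where 9.20% of all such autosomal genes were. Of these 38, 33 had sonicated H4K16ac at both stages, 2 at 3-4 h only (RpL21 and RpS18), 2 at 11-12 h only (RpL24 and RpLP2) and 1 at neither (RpL11). Of all 77 autosomal members, 65 had sonicated H4K16ac at 3-4 h and 59 at both stages, so this overlap is not particular to the 38. The matching share of all autosomal genes that gained MNase H4K16ac was not computed. RpL11, which with RpL5 binds the 5S ribosomal RNA, had a cover of 59.1% on MNase chromatin at 11-12 h, with the nearest sonicated region 1.56 kb away at 3-4 h and 17.5 kb away at 11-12 h. Its partner RpL5 had no MNase region at either stage and 18.7% and 30.1% of its body under sonicated H4K16ac. Among the other members that the MNase list held at 11-12 h only were RpLP0, the base of the ribosomal stalk, with 68.2% cover, RpS3, with 69.6%, and RpL3, with 22.6%. RpL7 (55.6% at 3-4 h) and RpL34a (5.42%) were in the MNase list at 3-4 h only. The larger MNase amount used at 11-12 h moves with this difference, and its part in the result was not tested. Counted from the widest 50% of each list, the group of 38 came to 6, as the 48 regions over members at 11-12 h had a median width of 1.26 kb and the whole list one of 1848 bp. The 12 members touched at 3-4 h came to 3 in that count, to 6 where 50% of the gene had to be covered, and to 24 with 1 kb added to each gene end.

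Sonicated H4K16ac was kept over most autosomal members. Of 65 members touched at 3-4 h, 59 were touched at 11-12 h and 6 were not (9.85% to 100% cover at 3-4 h), while 40.7% of all autosomal genes touched at 3-4 h were missing from the later list. The 6 were RpS2, RpL21, RpS18, RpL27, RpL34a and RpS19b. RpS2 had 97.1% cover at 3-4 h and a region 0.286 kb away at 11-12 h, whereas RpL21 had 100% cover at 3-4 h and its nearest region 112 kb away at 11-12 h. RpL21 and RpS18 were covered by 99.2% and 100% on MNase chromatin at 11-12 h, so the preparations differ for both. Of the 12 members untouched at 3-4 h, RpL24 and RpLP2 were touched later, beside 3.49% of such autosomal genes. In the widest 50% of each list, 19 members were at 3-4 h only in place of 6, and with 1 kb added to each gene end 3 were. Over the 59 members kept, the median cover was 83.2% and 85.2%, with 28 higher later, 17 lower and 14 within 0.5 points.

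RpL24 and RpLP2 had H4K16ac at 11-12 h only in both preparations, and RpL34a at 3-4 h only in both. RpLP2, an acidic protein of the ribosomal stalk, was covered by 100% in both lists of 11-12 h, and its H3K36me3 cover was 62.9% and then 100%. RpL24 had 64.4% on MNase and 75.9% on sonicated chromatin at 11-12 h, and 100% H3K36me3 cover at both stages. RpL34a went from 100% to 0% in the sonicated lists and from 5.42% to 0% in the MNase lists. Its nearest regions at 11-12 h lay only 0.211 kb away on sonicated and 0.185 kb away on MNase chromatin. The partner gene RpL34b had 84.7% and 100% in the sonicated lists. The share of all autosomal genes that changed the same way in both preparations is not given here.

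**Figure D3:**
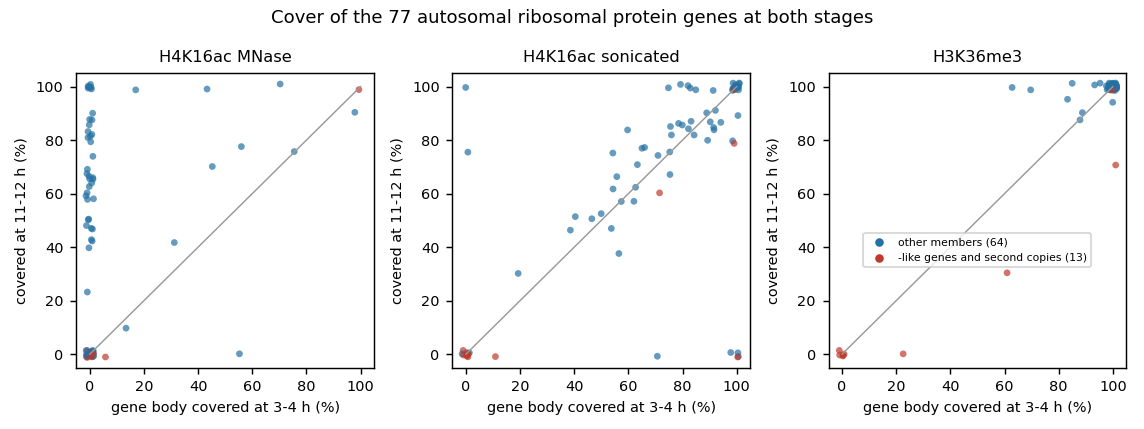
Percent of the gene body covered at 3-4 h (x axis) and at 11-12 h (y axis) for the 77 autosomal ribosomal protein genes, in the H4K16ac lists of MNase and of sonicated chromatin and in the H3K36me3 lists; each point is a gene, moved by up to 1.5 points so that points do not hide each other, and red points are -like genes and second copies. A column of 38 points at 0% on the x axis of the MNase panel is absent from the sonicated panel, where 2 points stand at 0% early and above it late.

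H3K36me3 was the steadiest mark over the autosomal members. The same 71 members were touched at both stages, 57 of them with cover within 0.5 points, and RpS28a (21.7% at 3-4 h) was the only one in the earlier list alone. Of all 5911 autosomal genes touched by H3K36me3 at 3-4 h, 5665 were touched at 11-12 h too, with a median change of cover of 0 points. Keeping this mark was therefore not particular to the members. Cover was complete for 58 and then 65 of the 77 members, 75.3% and 84.4%, beside 20.0% and 18.4% of all autosomal genes. The regions over members had medians of 4.44 and 4.10 kb and touched a median of 3.00 protein-coding genes, so that 10 of 73 and 11 of 72 regions touched the member alone. On the X, complete H3K36me3 cover was less frequent, at 3 and then 6 of 14 members (21.4% and 42.9%), beside 16.7% and 16.4% of X genes. Complete H4K16ac cover had the other order, with 13 of 14 X-linked members (92.9%) at 11-12 h in both preparations, beside 50.7% of X genes on MNase and 38.7% on sonicated chromatin. On the autosomes 10 of 77 (13.0%) were complete on MNase and 20 of 77 (26.0%) on sonicated chromatin at that stage, beside 3.15% and 2.26% of autosomal genes. At 3-4 h H4K16ac cover was complete for 2 X-linked members (14.3%) on MNase chromatin, below the 24.7% of X genes. On sonicated chromatin it was complete for 9 (64.3%), beside 25.3%. The autosomal counts of 3-4 h were 1 (1.30%) on MNase and 19 (24.7%) on sonicated chromatin, beside 1.09% and 4.76% of genes. The X stood above the autosomes in complete H4K16ac cover among all genes as well.

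**Figure D4:**
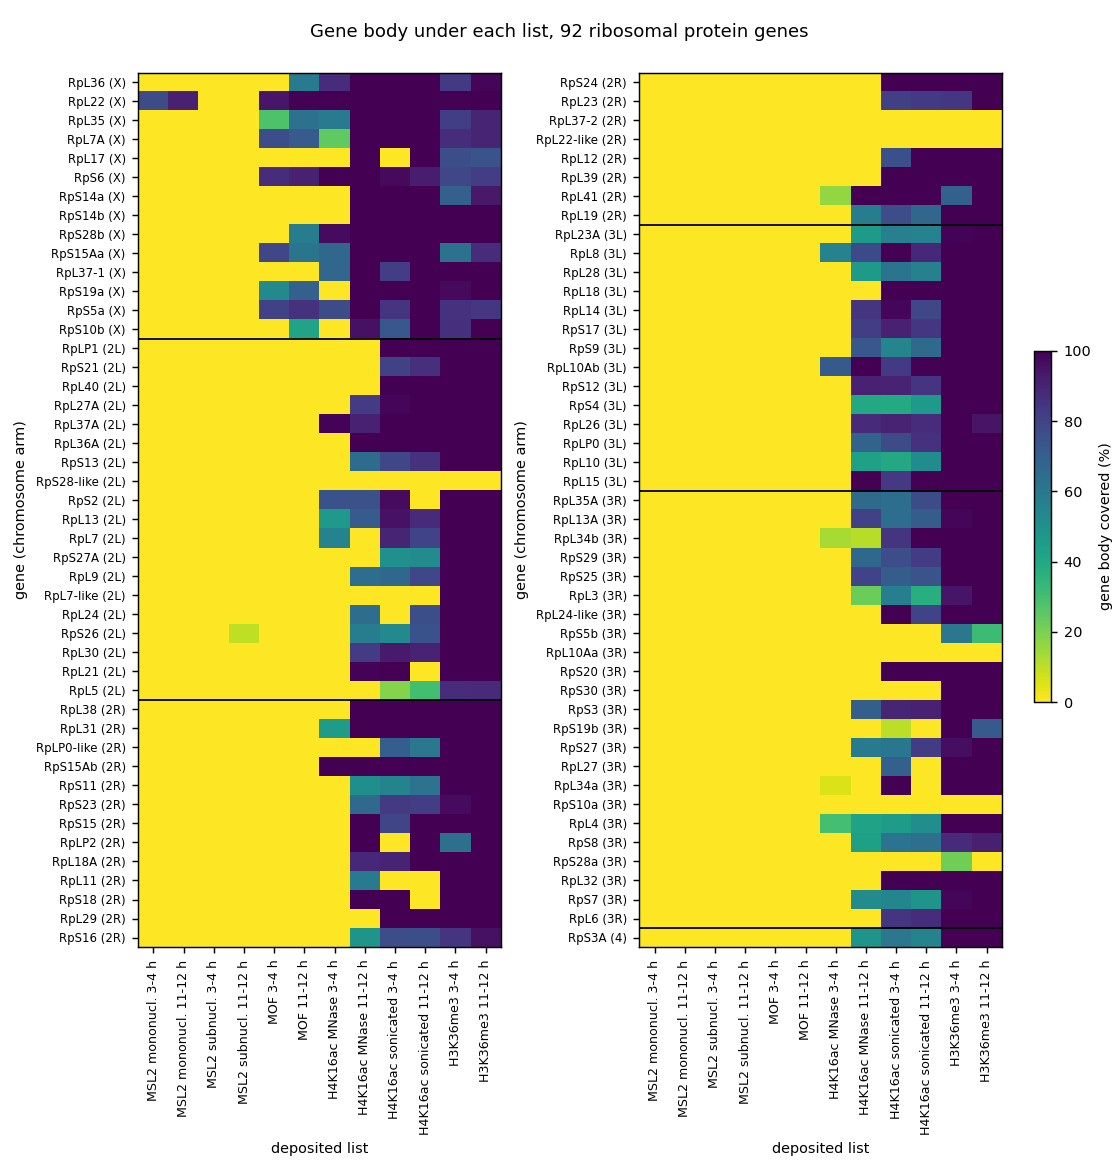
Percent of the gene body under each of the 12 lists (columns) for the 92 ribosomal protein genes (rows, ordered by chromosome arm and position), from 0% in yellow to 100% in dark violet. At 11-12 h all 14 X-linked genes have broad H4K16ac and 10 of them have MOF, most autosomal genes have H3K36me3 and partial or complete H4K16ac, and 5 rows are empty.

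Regions at the gene ends were counted within 250 bp to each side of the first and the last base. H4K16ac lay at both ends of all 14 X-linked members at 11-12 h, beside 61.5% of X genes on MNase chromatin and 52.2% on sonicated chromatin. At 3-4 h it lay at both ends of 4 on MNase chromatin (beside 37.2%) and of 11 on sonicated chromatin (beside 39.1%). H3K36me3 lay at both ends of 8 and then 10 X-linked members, beside 30.3% and 31.1% of X genes. MOF lay at both ends of 2 X-linked members at each stage, beside 30.5% and 35.5%, and at a single end of 7 and then 8, beside 18.3% and 19.3%. With windows of 500 bp MOF lay at both ends of 5 and then 7 of the 14, beside 33.9% and 39.6% of X genes, so the lower share of members with MOF at both ends held for the 250 bp windows and not for the wider ones. On the autosomes H3K36me3 lay at both ends of 71 and then 70 members, beside 32.2% and 31.6% of genes. Sonicated H4K16ac lay at both ends of 40 and then 38, beside 9.94% and 5.51%. MNase H4K16ac lay at both ends of 3 and then 20, beside 2.69% and 5.27%.

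**Figure D5:**
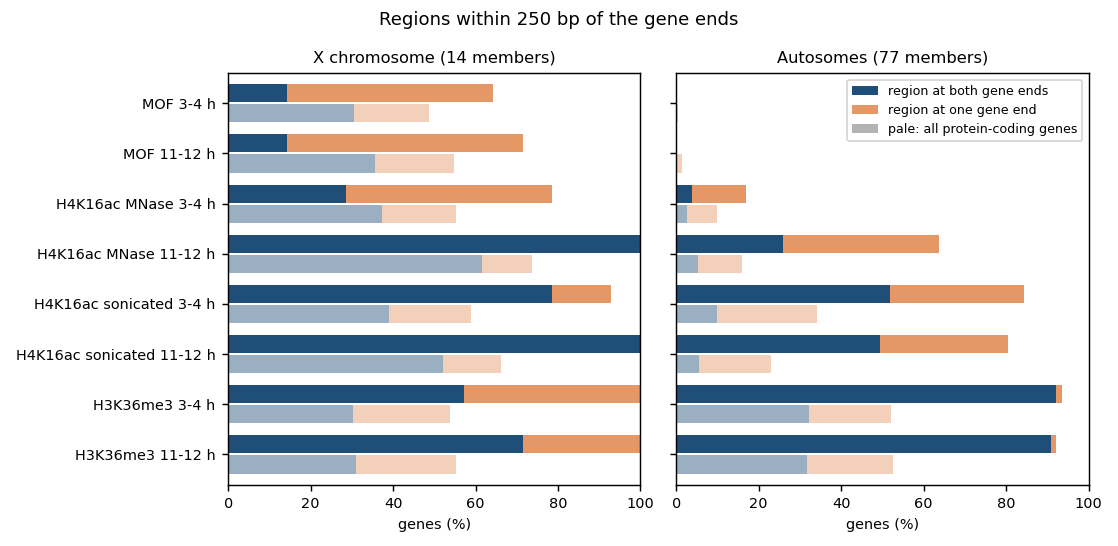
Share of genes, in percent, with a region within 250 bp of both ends (blue) or of a single end (orange), for the ribosomal protein genes (full colour) and all protein-coding genes of the class (pale), in 8 lists. MOF of the X has single ends in 8 members and both ends in 2 at 11-12 h, whereas H4K16ac of the X has both ends in all 14.

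The side on which each mark stopped was read from the first and last base of the gene, a choice made after the data were seen. No MOF region covered both end bases of an X-linked member at either stage, beside 24.6% and 29.3% of all X genes, and each of the 7 and 10 MOF-bearing members had a single end base covered. The H3K36me3 regions stopped on the same side. At 3-4 h all 7 members with MOF had a single end base under H3K36me3 as well, and it was the same end in 7 of 7 (RpL22, RpL35, RpL7A, RpS6, RpS15Aa, RpS19a and RpS5a). At 11-12 h it was the same end in 6 of 6, and the other 4 members with MOF had H3K36me3 over both end bases. The same end was also shared by 95.1% and 95.5% of all X genes with a single end base under both, so the members do not stand apart from X genes here. The single-end MOF and H3K36me3 regions did not change side between the stages, in 7 of 7 and 8 of 8 members, much as in all X genes (98.1% and 99.4%).

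The end under sonicated H4K16ac and that under H3K36me3 could be compared in few members. Of 8 autosomal members with a single end base under both sonicated H4K16ac and H3K36me3 at 3-4 h, 7 had opposite ends, and 35 more had H4K16ac at a single end and H3K36me3 over both. At 11-12 h there were 2 such members, 1 with the same end and 1 with opposite ends, and 38 had H3K36me3 over both. For all autosomal genes with a single end base under each, the same end was shared by 16.1% at 3-4 h and 17.9% at 11-12 h. On the X the ends were opposite in 2 of 2 members at 3-4 h and 1 of 1 at 11-12 h, where 31.1% and 71.9% of such X genes shared the same end. The end that carried sonicated H4K16ac was the same at both stages in 37 of 37 autosomal members with a single covered end in both sonicated lists, beside 98.5% of all such genes. It was also the same in 27 of 27 members between the sonicated and the MNase list at 11-12 h, beside 94.4%. Between the MNase lists of both stages it was the same in 3 of 5 members, beside 93.1%. In RpS26 H4K16ac at 11-12 h covered the higher end on both preparations (57.8% on MNase, 74.9% on sonicated chromatin), and H3K36me3 covered the gene whole. Its subnucleosomal MSL2 peak of 200 bp (2L 18441321 to 18441520), in the 11-12 h list only, lay over its lower end and covered 9.57% of it, with no MOF region on the gene. RpS26 is a small-subunit protein at the exit of the messenger RNA channel.

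Every member outside the H3K36me3 lists was a -like gene or a second copy. Counting -like genes and the second copy of each pair, 14 of the 92 members are of this kind, 13 of them autosomal. H3K36me3 touched 64 of 64 other autosomal members at both stages, and 8 and then 7 of the 13. Sonicated H4K16ac touched 60 and 58 of the 64, and 5 and 3 of the 13. MNase H4K16ac touched 10 and 47 of the 64, and 2 and 1 of the 13. All autosomal genes stood at 50.8% and 51.5% for H3K36me3 and at 32.9% and 21.9% for sonicated H4K16ac. They stood at 9.01% and 14.2% for MNase H4K16ac. For H3K36me3 and sonicated H4K16ac the 13 were thus near the share of all autosomal genes, and the 64 were above it. In no list at either stage were RpS28-like, RpL37-2, RpL22-like, RpL10Aa and RpS10a, all 5 of this kind. How many of all genes were in no list was not computed. None of the H4K16ac and H3K36me3 lists of 3-4 h held 46.3% of all autosomal genes, and none of 11-12 h held 47.1%, beside 6.49% and 7.79% of members. The second copies were listed by hand with earlier results of these data known, and not by letter: RpS10a, RpL10Aa, RpS28a and RpL34a count as second. The split between both groups is thus a description only.

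For several pairs the copy with the marks is X-linked. RpL22 carried mononucleosomal MSL2, MOF, H4K16ac and H3K36me3 at both stages, while its autosomal copy RpL22-like, known from the male germ line, was in no list. RpS10b and RpL37-1 on the X had H3K36me3 cover of 86.1% and 100% at 3-4 h, and RpS10a and RpL37-2 were in no list. RpS28b had 100% H3K36me3 cover at both stages, RpS28a 21.7% and then 0%, and RpS28-like 0%. RpS5b, known from the ovary, had 60.2% and 31.4% under H3K36me3 and no H4K16ac, against 85.3% and 84.2% for RpS5a. RpS19b, known from the germ line, had 100% and 71.6% under H3K36me3, and 9.85% and 0% under sonicated H4K16ac. For RpS15Aa and RpS15Ab both copies were marked, and autosomal RpS15Ab had 100% cover in all 6 lists of H4K16ac and H3K36me3, the highest sum of any autosomal member, from regions of 2.74 to 4.61 kb that touched 4 to 6 genes.

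Among pairs with no X-linked copy the picture was mixed. RpL10Ab had 71.5% and 100% on MNase and 83.2% and 99.4% on sonicated chromatin for H4K16ac, and 100% for H3K36me3, whereas RpL10Aa was in no list. RpL7-like, RpL24-like and RpLP0-like, whose yeast counterparts are ribosome assembly factors, each had 100% H3K36me3 cover at both stages. RpL24-like and RpLP0-like also had sonicated H4K16ac, 100% and 80.0% for the former and 70.1% and 60.3% for the latter, and RpL7-like had none. None of the 3 had MNase H4K16ac. After RpS15Ab, the autosomal members with the highest summed cover were RpL37A, RpL10Ab, RpL31 and RpL8. RpL37A had 99.1% and 91.0% under MNase H4K16ac. RpL31 had 44.8% and 100%, and RpL8 55.5% and 77.4%.

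H3K36me3 without any H4K16ac was the state of 7 autosomal members at 3-4 h and 6 at 11-12 h (9.09% and 7.79%), beside 19.9% and 27.3% of all autosomal genes. RpS30, which is translated as a fusion with a ubiquitin-like protein, had it at both stages, with 100% cover and the nearest sonicated H4K16ac region 18.1 and 27.1 kb away. H3K36me3 with both H4K16ac preparations was found over 12 and then 44 autosomal members (15.6% and 57.1%), beside 7.51% and 9.85% of genes. With sonicated H4K16ac alone it was found over 53 and then 17 (68.8% and 22.1%), beside 22.6% and 10.9%. With MNase H4K16ac alone it was found over 0 and then 4 (5.19%), beside 0.773% and 3.39%. No member on the X or the autosomes had H4K16ac without H3K36me3, a state of 12.2% and 19.6% of X genes and of 2.89% and 1.45% of autosomal genes. By subunit, MNase H4K16ac of 11-12 h touched 29 of 48 large-subunit and 19 of 29 small-subunit autosomal members, and sonicated H4K16ac 40 of 48 and 21 of 29. RpL32, the gene long used as a reference transcript, had sonicated H4K16ac and H3K36me3 over 100% of its body at both stages and no MNase H4K16ac. RpL5, RpS3, RpL3, RpS30, RpL32, RpL40 and RpS27A, and the members that make up the small groups above, were named after their values were seen. The ubiquitin fusion genes RpL40 and RpS27A were alike in having no MNase region, with 100% and 100% for RpL40 and 49.9% and 51.9% for RpS27A on sonicated chromatin.

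RpS3A on chromosome 4, an arm with its own chromosome-wide regulator, resembled the autosomal members. H3K36me3 covered it whole at both stages, sonicated H4K16ac covered 60.4% and 55.0% of it, and MNase H4K16ac 0% and then 48.3%. No MOF or MSL2 region touched it.

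Genes linked to the ribosome but outside the symbol rule were counted the same way, from a list of 24 elongation, assembly and ribosomal genes. The 3 on the X, sta (which encodes ribosomal protein SA), Ns3 and bys, were all touched by MOF, H4K16ac and H3K36me3 at both stages. These lists touched from 48.5% (MOF at 3-4 h) to 74.5% (MNase H4K16ac at 11-12 h) of all X genes. Ns3, a nucleostemin family GTPase, also had mononucleosomal MSL2 over 61.3% and 90.9% and a subnucleosomal peak over 8.41% at both stages. For sta the MOF cover was 80.0% and 99.2%, and for bys, a ribosome assembly factor on the higher side of RpS6, it was 100% at both stages. Of the 21 on the autosomes, all had H3K36me3 at both stages, beside 50.8% and 51.5% of autosomal genes. Sonicated H4K16ac touched 19 and then 14, beside 32.9% and 21.9%, and MNase H4K16ac 3 and then 7, beside 9.01% and 14.2%. None had MOF, beside 0.395% and 1.22%, or MSL2, beside at most 0.756%. Of the autosomal members, 48 of 77 had MNase H4K16ac at 11-12 h; the difference between these lists was not tested.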

How the data were processed

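Chromatin of whole embryos was immunoprecipitated and sequenced, and the deposited files give region positions only (chromosome, start and end) in 12 lists, 1 for each antibody, preparation and stage with all replicates together. Per the submitters' processing notes, Bowtie2 2.2.9, SAMtools and HOMER were used with dm6; no role is stated for each, and for peak settings and reads that match several places nothing is stated. The authors' starts were taken as 0-based and written 1-based. Genes came from a RefSeq gene table of the same release, without strand. Cover, touched genes, ends (250 bp to each side) and the nearest region were computed with Python 3.11.15, pandas 2.3.3 and numpy 2.4.6, and the overlap code matched a base-by-base count in 20 of 20 simulated sets of 200 genes. No test was made, because each group is 1 pooled list and genes are not replicates; the depth is unknown. The members and lists were chosen with earlier results of these data known. Genes named were every X-linked member, autosomal members under MSL2 or MOF, those whose H4K16ac call changed the same way in both preparations, the 5 autosomal members with the highest and the 5 with the lowest summed cover, the paralog pairs, and related genes on the X; others are marked in the text. Alternatives were at least 50% cover, 1 kb added to each gene end, the widest 50% of each list, 500 bp windows, the end base itself, members without -like genes and second copies, and a background of genes of at most 3 kb. Promoter sequences and motifs were not analysed here.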

Additional observations from a re-analysis of the deposited data

How the results depend on the processing

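Of 220 values recomputed under another setting, 163 stayed within a factor of 1.5 of the reported count or median cover, and 57 did not. Values follow as reported, then under the setting, with the earlier stage first where both are given.

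In the widest 50% of each list, which drops the narrower regions by construction, the X-linked counts changed from 1 to 0 for mononucleosomal MSL2 (3-4 h, and kept at both stages). MOF went from 7 to 2 and from 10 to 4, with 7 to 2 kept. MNase H4K16ac went from 9 to 4 at 3-4 h, 9 to 4 kept and 5 to 10 gained, and sonicated H4K16ac from 1 to 3 gained. H3K36me3 went from 14 to 4 and from 14 to 6, with 14 to 4 kept. On the autosomes MNase H4K16ac went from 12 to 3 and from 48 to 8, with 10 to 2 kept, 38 to 6 gained and 2 to 1 lost. Sonicated H4K16ac went from 61 to 33 at 11-12 h, with 59 to 30 kept and 6 to 19 lost. H3K36me3 went from 72 to 43 and from 71 to 41, with 71 to 37 kept and 1 to 6 lost.

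With 1 kb added to each gene end, X-linked counts for mononucleosomal MSL2 went from 1 to 5 and from 1 to 4, with 1 to 4 kept, subnucleosomal MSL2 from 0 to 1 at 3-4 h, MOF gained from 3 to 1 and MNase H4K16ac gained from 5 to 3. On the autosomes MOF went from 0 to 1 at 11-12 h, MNase H4K16ac from 12 to 24 at 3-4 h and 10 to 21 kept, sonicated H4K16ac lost from 6 to 3 and H3K36me3 lost from 1 to 0. With at least 50% of the gene covered, autosomal subnucleosomal MSL2 went from 1 to 0 (at 11-12 h and gained), MNase H4K16ac from 12 to 6 at 3-4 h, 10 to 5 kept and 2 to 1 lost, and sonicated H4K16ac gained from 2 to 5.

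With 500 bp windows, members with both ends went from 2 to 5 and from 2 to 7 for MOF of the X, from 4 to 7 for MNase H4K16ac of the X at 3-4 h, and from 3 to 6 and 20 to 31 for it on the autosomes. At the end base itself, an alternative chosen after seeing the data, they went from 2 to 0 at both stages for MOF, from 8 to 3 and 10 to 6 for H3K36me3 of the X, from 3 to 1 and 20 to 10 for autosomal MNase H4K16ac, and from 40 to 22 and 38 to 21 for autosomal sonicated H4K16ac. Without -like genes and second copies, autosomal losses went from 2 to 1 for MNase H4K16ac and from 1 to 0 for H3K36me3, and the median MOF cover of the X at 3-4 h from 13.9% to 27.9%. By construction, longer genes and wider windows can only raise the counts of touched members and of members with both ends. The rule of at least 50% cover and the end base can only lower them. Counts of gained and lost members have no such fixed direction. Beyond this, for all settings but the widest 50%, the cause of the changes was not tested. Of 24 background shares, 21 were labelled as moved when only genes of at most 3 kb were counted. That label did not follow the rule given above for counts and cover, so it is no measure of the size of a change. For autosomal sonicated H4K16ac at 3-4 h, 32.9% to 31.4% was labelled as moved. For autosomal MOF at 3-4 h, 0.395% to 0.298% was labelled as the same.

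No paired analysis was possible because each list pools the replicates, and leaving out single replicates could not be computed for the same reason. Without read counts, the depth behind a missing region is unknown.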
